A study of Homo sapiens with 16 samples.

Results

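The response of Nalm6 cells labelled CASP1 to prednisolone was measured on 8 arrays, 4 of treated and 4 of untreated cells, out of 16 arrays in the series. Nalm6 is an established human cell line from a B-cell precursor leukaemia, prednisolone is a synthetic glucocorticoid, and the arrays are Affymetrix PrimeView arrays hybridised with biotin-labelled total RNA. Members were all arrays titled for this line, and per gene the brightest probe set that the platform annotation gives to a single gene was read, which left 18132 genes. The study asked, per its title, about CASP1, cleavage of the glucocorticoid receptor and glucocorticoid resistance.

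The first group was Nalm6 cells said to carry active, overexpressed CASP1 and given prednisolone for 24 hours, and the second was the same line without drug. The remaining 8 arrays, used only where the responses of the lines are compared, were of Nalm6 cells labelled control, treated likewise on 4 arrays and untreated on 4. Growth medium and RNA extraction were shared by all groups. The drug is spelled predisone in the sample labels and prednisolone in the protocol, and the labels do not state its dose. The labels state neither the promoter of the introduced gene, nor whether the line is 1 clone or a pool, nor what the control cells carry. Nothing in them ties the arrays to separate cultures, so each p-value measures the spread between these samples, which may be technical. Throughout, a level is a log2 signal, ± is an SD over 4 arrays, and a change is a difference of group means on the log2 scale, treated minus untreated. Each gene was tested with limma over all 16 arrays and called at an adjusted p under 0.05.

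Glucocorticoids bind the glucocorticoid receptor, encoded by NR3C1, which chaperones of the HSP90 machine hold in the cytoplasm. The bound receptor enters the nucleus, binds DNA at paired half-sites or through other factors, and raises some genes while repressing others. In precursor B cells this stops the cell cycle and leads to apoptosis through the BCL2 family, which is why prednisolone is part of the treatment of lymphoblastic leukaemia.

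Replicate 1 stood apart in both groups. Its correlation with the other treated arrays over probe sets was 0.9832 to 0.9848, against 0.995 to 0.9964 among those others. For untreated replicate 1 it was 0.9906 to 0.9913, against 0.9955 to 0.9969. Replicate 1 of control cells stood apart as well. There the values were 0.9915 to 0.9927 against 0.9966 to 0.9973 with prednisolone, and 0.991 to 0.9919 against 0.9969 to 0.9973 without it. Markers of the labelled cell type were present: the 14 measured B-cell precursor markers had group mean levels of 6.43 to 12.54 in treated and 6.45 to 12.70 in untreated cells. Their summed level was 142.3 to 147.8 on treated arrays and 148.3 to 149.9 on untreated arrays, and 3 of the 14 were called lower with prednisolone. The 6 T-cell markers lay between 3.17 and 4.37 in treated and 3.14 and 4.32 in untreated cells, none of them called, with summed levels of 22 to 22.9 and 21.3 to 22.8. Of 9 monocyte or granulocyte markers only LYZ was called, and the summed level of these 9 was 31.7 to 32.9 on treated and 32.9 to 34.1 on untreated arrays. For comparison, the median gene had a mean level of 5.48 and the 25th percentile of gene means was 3.55. The deposited values hold no detection calls, so no fold is given where a group mean lay below that percentile.

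CASP1, the inflammatory caspase named in the label, had levels of 5.38, 4.79, 4.87 and 5.05 on treated arrays and 6.05, 5.45, 5.62 and 5.64 on untreated arrays. Every treated array lay below every untreated one, and the change was -0.67 (SE 0.13, 1.59-fold lower, adjusted p = 0.0045); 4 of its 9 probe sets were called lower and none higher. With the mean of its probe sets the change was -0.37. Against the label, untreated cells labelled CASP1 had a lower CASP1 level than untreated control cells (difference -2.06, adjusted p = 2.3e-08). Where the probes lie on the introduced gene was not analysed here, nor whether the labels of the lines are exchanged, and the line is called by its label throughout. With exchanged labels, the responses would belong to the other line and each difference between the lines, interactions included, would have the opposite sign.

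Prednisolone called 1150 of 18132 genes in these cells, or 6.34%. Of these 542 were higher (2.99% of all genes) and 608 lower (3.35%). Each list count below is to be read beside these shares. Large changes ran mostly upward: 153 called genes rose at least 2-fold and 17 fell at least 2-fold. The median change was 0.64 among genes called higher and -0.48 among genes called lower, while over all genes it was 0.018. Treated and untreated arrays did not overlap for 1043 of the called genes, and over all genes the 2 groups failed to overlap in 11.9%. Called genes with several probe sets numbered 879, and in 0 of the 1150 was another probe set called the other way.

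**Figure D1:**
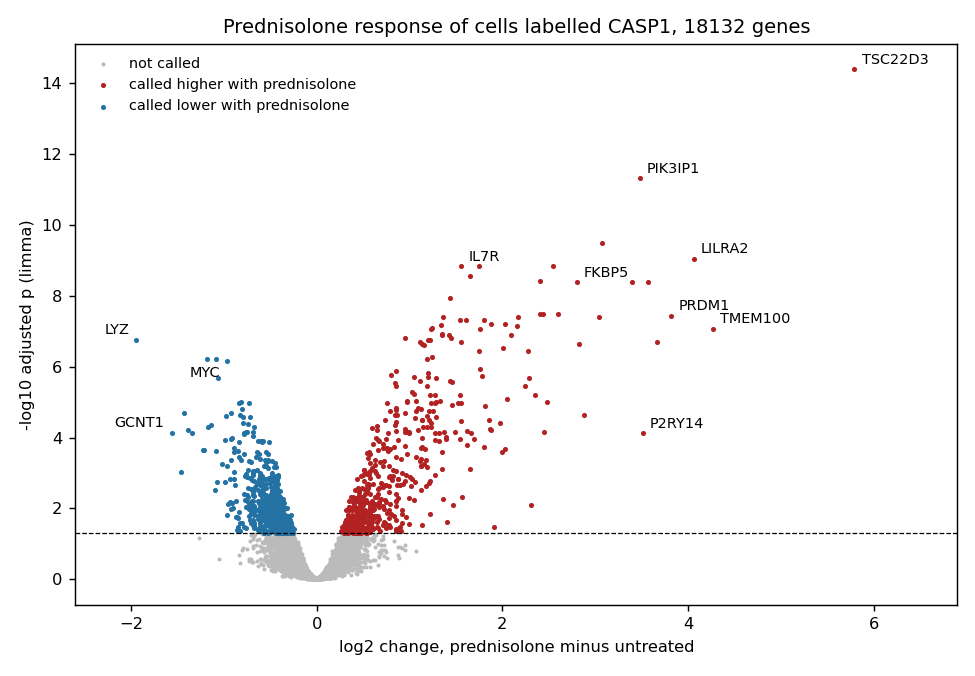
Change with prednisolone (horizontal axis, log2, treated minus untreated) against -log10 of the adjusted p from limma (vertical axis) for 18132 genes in cells labelled CASP1, with 4 arrays per group. Red points were called higher and blue points called lower, the dashed line is adjusted p = 0.05, and the right arm reaches 5.79 (TSC22D3) where the left arm ends at -1.94 (LYZ).

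TSC22D3, also called GILZ, is a leucine zipper protein that the receptor induces directly in many cell types. Its levels were 12.86, 12.48, 12.72 and 12.63 in treated cells, against 6.76, 6.91, 6.80 and 7.09 in untreated cells. The groups were far apart, with a rise of 5.79 (SE 0.13, 55.2-fold, adjusted p = 4.1e-15), the top rank of all genes, and all 3 of its probe sets were called higher. FKBP5, the co-chaperone that lowers the receptor's affinity for hormone, had levels of 11.67, 11.50, 11.85 and 11.69 in treated cells and 9.33, 8.55, 8.91 and 8.70 in untreated cells. It rose by 2.80 (SE 0.16, 6.98-fold, adjusted p = 4.1e-09) with no overlap between the groups.

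The receptor gene itself rose. NR3C1 had levels of 11.19, 10.99, 10.88 and 10.95 in treated cells, against 9.96, 10.18, 10.23 and 10.24 in untreated cells, and all 10 of its probe sets were called higher. The rise was 0.85 (SE 0.10, 1.80-fold, adjusted p = 1.7e-05). Among 18 receptor and chaperone genes, 2 rose (FKBP5 and NR3C1) and 2 fell, with a median change of 0.061. PTGES3, the p23 chaperone that stabilises the HSP90 complex of the receptor, averaged 11.88 ± 0.05 in treated and 12.30 ± 0.06 in untreated cells, a fall of -0.42 (adjusted p = 0.0012). Of 16 coregulators of the receptor, 0 rose and 3 fell, with changes between -0.67 and 0.11 over the list and a median of -0.168.

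Of 38 measured genes known as glucocorticoid-induced in other settings, 18 rose and 4 fell, and their median change was 0.345, beside 0.018 over all genes. Beyond TSC22D3 and FKBP5 the rises included SOCS1, a brake on cytokine signalling, by 2.40 (5.26-fold, adjusted p = 4e-09), and KLF9, a Kruppel-like repressor, by 1.75 (adjusted p = 1.5e-09). PER1, a clock repressor, averaged 7.39 ± 0.43 in treated and 5.24 ± 0.09 in untreated cells, and ZBTB16, a zinc finger repressor, 5.55 ± 0.48 and 3.54 ± 0.07. These genes, both named outside the naming rule after their values were seen, rose by 2.16 and 2.01. NFKBIA, the inhibitor that holds NF-kappaB in the cytoplasm, rose by 1.44 (2.70-fold, adjusted p = 1.1e-08) and DDIT4, an inhibitor of mTOR complex 1, by 1.05 (2.07-fold, adjusted p = 6.1e-06). With the mean of all probe sets SOCS1 rose by 1.48, KLF9 by 0.93 and PER1 by 0.75, and each stayed called.

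A few genes that rise with glucocorticoids elsewhere did the opposite. CDKN1C, a CDK inhibitor also known as p57, had levels of 7.91, 7.18, 7.41 and 7.35 in treated cells, against 9.36, 8.49, 8.42 and 8.47 in untreated cells. All treated arrays were lower, by -1.22 (SE 0.18, 2.33-fold lower, adjusted p = 0.00023). TNFAIP3, a ubiquitin-editing inhibitor of NF-kappaB, fell by 0.74 on the log2 scale (adjusted p = 4.2e-05), and DUSP1, a MAP kinase phosphatase, by 0.50 (adjusted p = 0.007); all probe sets of CDKN1C (3), TNFAIP3 (2) and DUSP1 (4) were called lower. The fourth was PER2, a clock repressor named to complete the count, at -0.41.

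Promoters were searched for the receptor's paired half-sites, because the genes called higher include known direct targets. The search used the 250 bases before each gene's start in RefSeq (GRCh38.p14), and the letters GNACA and TGTNC with any 3 bases between them, a motif that reads the same on both strands. They occurred in 109 of 27305 genes with a promoter (0.399%), in 7 of 456 genes called higher (1.54%), in 1 of 516 called lower (0.194%) and in 0.32% of genes tested and not called. The half-site AGAACA, searched on both strands, lay in 14.8% of all promoters, 11.2% of those called higher and 10.3% of those called lower. None of the 4 promoter windows of TSC22D3 held either set of letters, which says only that they are not in these windows. CHST7 is a chondroitin sulfotransferase (chrX:46573515-46573764, plus strand). TXNIP is an arrestin that binds thioredoxin and limits glucose uptake (chr1:145996580-145996829, minus strand). Below are the windows of CHST7 and TXNIP, with the matched letters in capitals.
CHST7: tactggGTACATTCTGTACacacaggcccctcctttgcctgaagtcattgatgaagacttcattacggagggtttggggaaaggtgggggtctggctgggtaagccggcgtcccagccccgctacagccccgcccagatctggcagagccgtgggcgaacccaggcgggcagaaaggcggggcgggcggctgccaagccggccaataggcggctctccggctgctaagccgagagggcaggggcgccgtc
TXNIP: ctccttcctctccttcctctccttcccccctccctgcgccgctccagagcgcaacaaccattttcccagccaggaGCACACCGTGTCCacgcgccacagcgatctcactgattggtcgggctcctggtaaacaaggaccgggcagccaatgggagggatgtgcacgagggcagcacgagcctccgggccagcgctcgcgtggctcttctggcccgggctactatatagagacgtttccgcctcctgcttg
The match starts 244 bases before the start of CHST7 and 175 before that of TXNIP.

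CHST7 had levels of 9.62, 9.31, 9.68 and 9.61 in treated cells and 7.25, 7.0, 6.86 and 6.95 in untreated cells, a rise of 2.54 (SE 0.13, 5.81-fold, adjusted p = 1.5e-09). TXNIP had levels of 13.19, 13.30, 13.39 and 13.37 with prednisolone, among the highest signals on the arrays, against 12.21, 12.10, 12.11 and 12.08 without it. It rose by 1.19 (SE 0.12, 2.28-fold, adjusted p = 3.4e-06), and all 5 of its probe sets were called higher. Neither gene's groups overlapped.

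**Figure D2:**
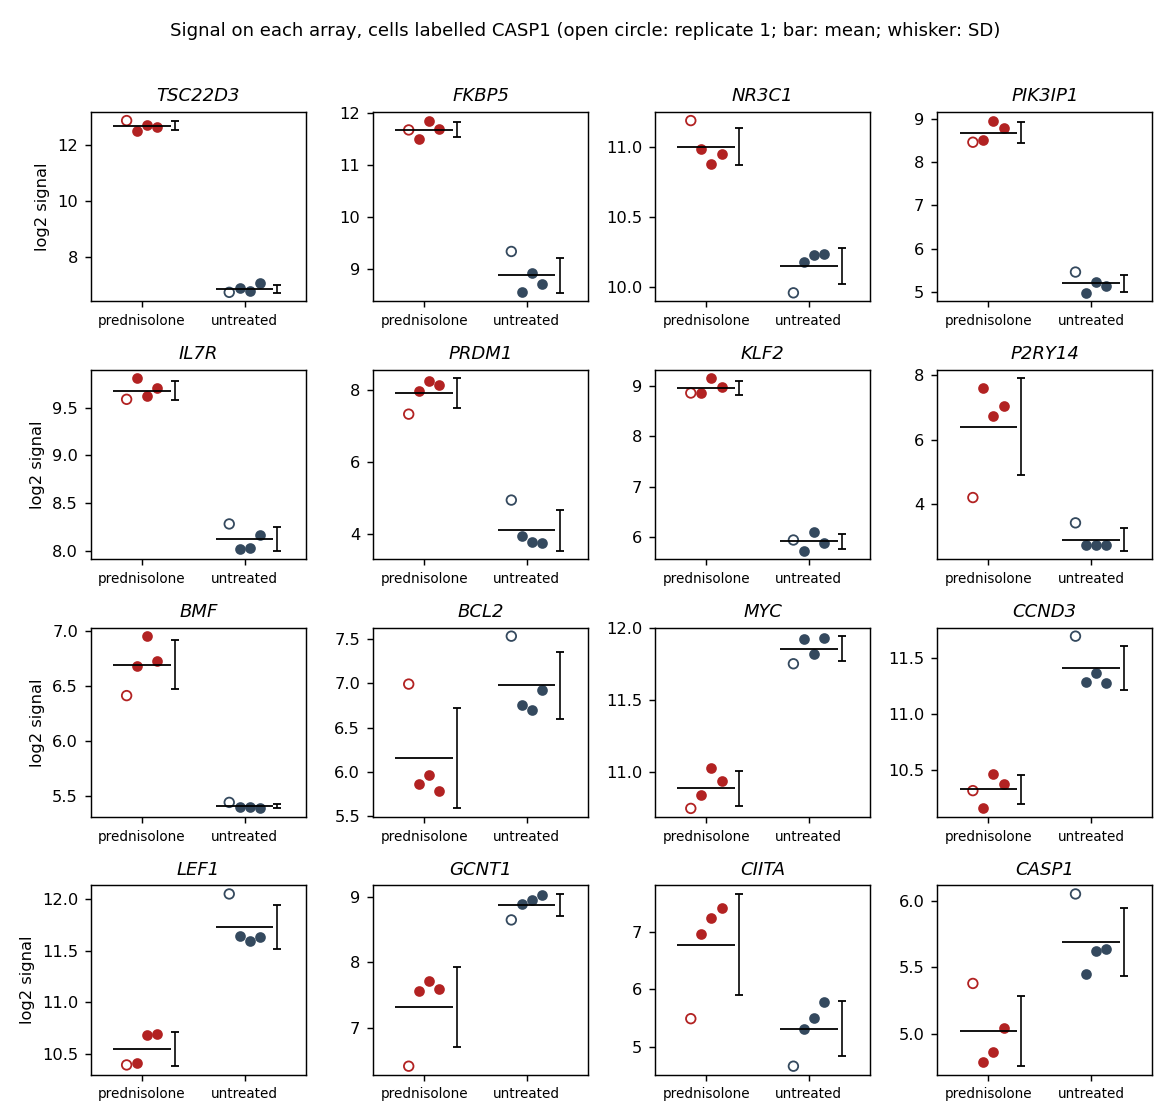
Log2 signal (vertical axis) of 16 genes on each of the 8 arrays of cells labelled CASP1, with prednisolone at left and untreated at right in every panel. Open circles are replicate 1, bars are means and whiskers SDs over 4 arrays; replicate 1 sits apart from the other 3 treated arrays for P2RY14, BCL2, GCNT1 and CIITA, and the panels have their own ranges.

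Genes of the cell surface gave several of the largest rises. LILRA2, an activating leukocyte immunoglobulin-like receptor, had levels of 8.13, 7.73, 8.03 and 7.86 in treated cells, against 4.39, 3.21, 3.95 and 3.95 in untreated cells. Its rise was 4.06 (SE 0.20, 16.7-fold, adjusted p = 9.1e-10), or 1.87 with the mean of its 7 probe sets, all of which were called higher. LILRB2, an inhibitory member, averaged 3.73 ± 0.25 in treated and 2.51 ± 0.11 in untreated cells, a rise of 1.22 (adjusted p = 6.3e-06) that started below the 25th percentile of genes and was 0.76 averaged over its probe sets. Of 10 measured receptors of this kind 2 rose, 0 fell and the median change was 0.236; the family members are alike in sequence, and cross-hybridisation between them was not tested.

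Among 15 purinergic receptor genes, which sense extracellular nucleotides, 3 rose and 0 fell, with a median change of 0.07. P2RY14, a receptor for UDP-sugars, had levels of 4.19, 7.61, 6.72 and 7.06 in treated cells and 3.40, 2.71, 2.71 and 2.70 in untreated cells. Replicate 1 was the lowest treated array by far and the highest untreated array, and still the groups did not overlap (change 3.51, SE 0.47, adjusted p = 7.6e-05). The untreated levels lay below the 25th percentile of genes. P2RX5 encodes a channel opened by ATP and had levels of 8.62, 7.95, 8.42 and 8.30 with prednisolone, against 5.71, 4.57, 4.68 and 4.73 without it. Its rise was 3.40 (SE 0.20, 10.5-fold, adjusted p = 4.1e-09). PIEZO1, a mechanosensitive cation channel, had levels of 10.28, 10.22, 10.84 and 10.63 in treated and 7.63, 7.92, 8.05 and 7.97 in untreated cells, with a rise of 2.60 (6.06-fold, adjusted p = 3.3e-08).

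Of 17 B-lineage surface antigens 4 rose and 3 fell, and their median change was 0.057. CD52, the small glycoprotein bound by alemtuzumab, averaged 8.44 ± 0.13 in treated and 5.96 ± 0.21 in untreated cells and rose by 2.48 (5.57-fold, adjusted p = 1e-05). CD53, a tetraspanin of leukocytes, rose by 1.65 (3.14-fold, adjusted p = 2.7e-09) and CD72, an inhibitory co-receptor of the B-cell receptor, by 1.28 (adjusted p = 1e-05), or by 0.82 averaged over its 2 probe sets, of which 1 was called. In the other direction CD9, a tetraspanin of B-cell precursors, had levels of 11.85, 11.99, 12.13 and 12.02 in treated cells, against 12.72, 13.01, 12.97 and 12.97 in untreated cells. Its fall was -0.92 (SE 0.11, 1.89-fold lower, adjusted p = 2e-05), with 7 of 9 probe sets called lower. MME, the CD10 antigen of common acute lymphoblastic leukaemia, had levels of 10.41, 11.69, 11.63 and 11.65 with prednisolone and 12.13, 12.15, 12.24 and 12.22 without it, a change of -0.84 (adjusted p = 0.013). Treated replicate 1 set much of that size: without it the change was -0.53 (adjusted p = 8.7e-05), and with the 8 arrays of this line alone the call was lost (adjusted p = 0.1).

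Cytokine receptor and JAK-STAT genes had 6 of 24 members higher and 1 lower, with a median change of 0.082. IL7R, a chain of the interleukin 7 receptor, had levels of 9.59, 9.81, 9.62 and 9.71 in treated and 8.28, 8.02, 8.03 and 8.16 in untreated cells. It rose by 1.56 (SE 0.08, 2.96-fold, adjusted p = 1.5e-09), with all 3 probe sets called higher. Beside SOCS1, the feedback inhibitors CISH and SOCS2 rose by 1.13 (adjusted p = 3.3e-05) and 1.12 (adjusted p = 0.00062). The level of SOCS2 was 11.26 on treated replicate 1, against 12.15 to 12.32 on the other treated arrays.

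Transcription factors of late B cells and quiescence were among the top rises. PRDM1, or BLIMP1, the repressor that ends the B-cell programme in plasma cells, had levels of 7.32, 7.96, 8.23 and 8.12 in treated cells, against 4.93, 3.92, 3.77 and 3.74 in untreated cells. The groups were well separated, with a rise of 3.82 (SE 0.26, 14.1-fold, adjusted p = 3.6e-08), or 1.77 with the mean of its 5 probe sets. IRF8, a factor of early B-cell and myeloid development, rose by 1.88 (3.68-fold, adjusted p = 6.4e-08). In all 4 of 17 late B-cell regulators rose and 1 fell, with a median of 0.106, while among 6 plasma-cell markers 2 rose (PRDM1 and IRF4, the call of IRF4 lost in 6 alternatives), the median change was 0.146, and summed levels were 46.8 to 49.1 on treated and 43.3 to 44.0 on untreated arrays. BCL6, the germinal centre repressor, was called at 0.90 (adjusted p = 0.033), but its groups overlapped and the call was lost in 8 of the alternative settings, for instance without treated replicate 1 (0.69, adjusted p = 0.09).

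Kruppel-like factors had 4 of 17 genes higher and 1 lower, and a median of -0.002. KLF2, which keeps lymphocytes quiescent and directs their homing, had levels of 8.86, 8.86, 9.15 and 8.97 in treated cells and 5.95, 5.74, 6.10 and 5.90 in untreated cells. The rise was 3.04 (SE 0.21, 8.23-fold, adjusted p = 4e-08). KLF13 rose by 1.21 (adjusted p = 3.3e-05) and KLF6 by 0.95 (adjusted p = 6.9e-05), both without overlap between groups.

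Brakes on growth signalling rose in part. PIK3IP1, a membrane inhibitor of PI3 kinase, had levels of 8.46, 8.50, 8.96 and 8.80 in treated cells, against 5.46, 4.98, 5.22 and 5.13 in untreated cells. Every treated array was higher, by 3.48 on average (SE 0.12, 11.2-fold, adjusted p = 4.9e-12), or by 1.68 with the mean of its 8 probe sets, of which 7 were called higher. Over 16 PI3K and mTOR brakes 3 rose and 2 fell, with a median of 0.024. Autophagy, lysosome and FOXO targets had 7 of 30 higher and 0 lower, and a median of 0.094. Of these TP53INP1, a stress protein that promotes autophagy, averaged 11.53 ± 0.47 in treated and 9.25 ± 0.39 in untreated cells (change 2.28, 4.87-fold, adjusted p = 3.7e-07), or 1.42 averaged over its probe sets. FBXO32, the ubiquitin ligase atrogin-1, rose by 1.07 (adjusted p = 1.8e-05).

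Other genes of the 20 largest rises came from varied functions. TMEM100, a small membrane protein, had levels of 6.83, 8.50, 8.37 and 8.37 in treated and 4.17, 3.94, 3.44 and 3.47 in untreated cells and rose by 4.27 (SE 0.32, 19.2-fold, adjusted p = 8.6e-08). TACC2, a centrosomal coiled-coil protein, had levels of 5.60, 7.04, 7.51 and 7.75 with prednisolone, against 3.39, 3.46, 3.25 and 3.14 without it, a rise of 3.67 (adjusted p = 2e-07), or 2.08 with the mean of its 2 probe sets, from levels below the 25th percentile of genes. GSN, the actin-severing protein gelsolin, had levels of 8.33, 8.76, 9.04 and 9.02 in treated and 5.57, 5.63, 5.73 and 5.95 in untreated cells, a rise of 3.07 (8.39-fold, adjusted p = 3.3e-10). In each of these 3 genes treated replicate 1 was the lowest treated array and still lay above all untreated arrays. STAG3, a meiotic cohesin subunit, rose by 2.88 (adjusted p = 2.3e-05). ATP4B, the beta subunit of the gastric proton pump, rose by 2.45 (adjusted p = 7.1e-05), and SMIM3, a small membrane protein, by 2.44 (adjusted p = 3.3e-08), or 1.43 averaged over its probe sets.

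The BCL2 family changed gene by gene. Of 15 BH3-only and effector genes 2 rose and 3 fell, with a median of 0.032, and of 6 anti-apoptotic genes 1 rose and 2 fell, with a median of -0.014. BMF, a BH3-only protein that neutralises anti-apoptotic members, had levels of 6.41, 6.68, 6.95 and 6.72 in treated cells, against 5.44, 5.40, 5.40 and 5.39 in untreated cells. Its brightest probe set rose by 1.29 (SE 0.12, 2.44-fold, adjusted p = 2.1e-06), but only 1 of 4 probe sets was called, and their mean gave 0.34 (adjusted p = 0.055). BCL2L11, or BIM, the BH3-only protein known as a mediator of glucocorticoid killing in lymphoid cells, had levels of 8.04, 7.59, 7.64 and 7.86 in treated and 7.27, 7.16, 7.12 and 7.22 in untreated cells. All treated arrays were higher, by 0.59 (SE 0.14, 1.51-fold, adjusted p = 0.016), and 6 of its 14 probe sets were called higher. Without untreated replicate 3 its adjusted p was 0.05, just past the threshold, at a change of 0.57, and averaging its probe sets gave 0.39 (adjusted p = 0.0043).

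Values for the other members were less settled. BCL2 itself had levels of 6.99, 5.86, 5.97 and 5.79 in treated cells and 7.53, 6.75, 6.70 and 6.92 in untreated cells, so replicate 1 was the highest array of both groups and the groups overlapped. The call (change -0.82, adjusted p = 0.025) was lost in 7 alternatives, among them the average of its probe sets (-0.25, adjusted p = 0.054). BCL2L1, which encodes BCL-XL, was called at -0.50 (adjusted p = 0.0069) but was not called when its probe sets were averaged (-0.21, adjusted p = 0.29). The levels of MCL1 averaged 10.80 ± 0.19 in treated and 10.44 ± 0.15 in untreated cells (change 0.36, adjusted p = 0.031), a call lost in 7 alternatives. BIK and HRK, BH3-only genes, were called at -0.62 and -0.53 and lost in 9 and 4 alternatives.

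None of 14 caspases and apoptosis regulators outside the BCL2 family was called by limma, beside 6.34% of all genes. Of the 14, 2 had an unadjusted p under 0.05, beside 3211 of all 18132 genes, and changes lay between -0.28 and 0.26. Without the 4 arrays numbered 1, 1 of the 14 was called higher and 1 lower, where 5.77% of all genes were called higher and 6.15% lower. Of 18 inflammasome and pyroptosis genes 1 rose and 2 fell, with a median of -0.101. GSDME, a gasdermin that forms membrane pores after cleavage, had levels of 6.70, 5.71, 5.79 and 5.85 in treated cells, against 3.35, 3.09, 3.03 and 3.26 in untreated cells. It rose by 2.83 (SE 0.23, adjusted p = 2.4e-07) from levels below the 25th percentile of genes, and its single probe set was 6.70 on treated replicate 1, above the other 3. IL1B, the cytokine precursor cleaved by caspase 1, had levels of 3.84, 4.43, 4.38 and 4.18 with prednisolone and 5.37, 5.05, 5.26 and 5.52 without it, a fall of -1.09 (SE 0.21, adjusted p = 0.0031). The third called gene was CASP1.

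The 15 largest falls were smaller than the rises, from -1.94 to -1.07. LYZ, lysozyme, had levels of 3.28, 3.26, 3.29 and 3.83 in treated cells, against 5.76, 5.39, 4.93 and 5.32 in untreated cells (change -1.94, SE 0.15, adjusted p = 1.7e-07). Its treated mean lay below the 25th percentile of genes, 1 of its 2 probe sets was called, and their average fell by 1.22. GCNT1, which builds core 2 branches on O-glycans, had levels of 6.41, 7.56, 7.72 and 7.59 in treated and 8.65, 8.89, 8.96 and 9.03 in untreated cells. It fell by 1.56 on the log2 scale (SE 0.21, adjusted p = 7.3e-05), and replicate 1 was the lowest array of each group. FAM111B, a protease of the nucleus, fell by 1.46 (adjusted p = 0.00096), NEXN, an actin-binding protein, by 1.34 (adjusted p = 7.6e-05), and SLC8A1, a sodium-calcium exchanger, by 1.21 (adjusted p = 0.00023), or by 0.62 averaged over its probe sets. RIPOR2, an inhibitor of RhoA in leukocytes, fell by 1.14 (adjusted p = 4.4e-05), and FJX1, related to a Golgi kinase of Drosophila, by 1.08 (adjusted p = 0.00025). PTPRK, a receptor tyrosine phosphatase, was called at -1.07, but with the mean of its 5 probe sets it was not (-0.49, adjusted p = 0.058).

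Cell-cycle entry genes fell in part. Of 23 G1 cyclins, kinases and inhibitors 0 rose and 6 fell, with a median of -0.238, and the 6 include the inhibitor CDKN1C. CCND3, the D cyclin of lymphoid precursors, had levels of 10.31, 10.15, 10.46 and 10.37 in treated cells, against 11.70, 11.29, 11.37 and 11.28 in untreated cells. All treated arrays were lower (change -1.08, SE 0.10, 2.12-fold lower, adjusted p = 6.1e-07), though only 1 of 2 probe sets was called and their mean fell by 0.62. CDC25A, the phosphatase that activates CDK2, had levels of 8.26, 7.92, 8.09 and 8.10 with prednisolone and 8.95, 8.81, 8.82 and 8.86 without it. It fell by 0.76 (SE 0.10, adjusted p = 7.1e-05) and CDK4, the partner of CCND3, by 0.55 (adjusted p = 0.016). SKP2, the ubiquitin ligase subunit that targets p27, was called at -0.50 (adjusted p = 0.006) but was not called when its probe sets were averaged (-0.40, adjusted p = 0.084).

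DNA replication genes fell most often of the lists described. Of 40 measured, 21 fell and 1 rose, 39 had a change below 0, and the median was -0.419, beside 0.018 over all genes and a share of 3.35% of genes called lower. Their summed level over 40 genes was 347.2 to 359.7 on treated and 369.6 to 372.4 on untreated arrays. UNG, which removes uracil from DNA, had levels of 7.14, 7.29, 7.54 and 7.34 in treated cells and 8.74, 8.66, 8.74 and 8.69 in untreated cells, a fall of -1.38 (SE 0.18, adjusted p = 6.1e-05). MCM10, which loads polymerase alpha, fell by 0.88 (adjusted p = 0.0021) and MCM4, a subunit of the replicative helicase, by 0.81 (adjusted p = 0.00042), with MCM4 at 8.89 on treated replicate 1 and 9.42 to 9.51 on the other treated arrays. POLA2, the second subunit of polymerase alpha, was the single riser: its levels were 8.06, 9.22, 9.51 and 9.39 in treated cells, against 7.23, 7.25, 7.47 and 7.58 in untreated cells (change 1.66, adjusted p = 7.6e-05, both probe sets called higher). In bulk RNA a lower share of cells in S phase and less RNA per cell cannot be told apart.

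Repair and checkpoint genes were called in the same direction, with 5 of 17 lower, 0 higher and a median of -0.355. The 5 were UNG, CLSPN, a checkpoint adaptor, at -0.78, EXO1, a repair exonuclease, at -0.59, MSH6, the mismatch sensor, at -0.58 (adjusted p = 0.00013) and BRCA1 at -0.50. Of 32 G2 and mitosis genes 0 rose and 1 fell (CDK1, -0.31), and the median was -0.026. Without the 4 arrays numbered 1 that list had 7 lower and a median of -0.151, while replication genes had 25 lower and a median of -0.351. In that setting 6.15% of all genes were called lower. Replication-dependent histone genes had 3 of 14 higher and 0 lower, with a median of 0.321, or 0.216 without those arrays. H2BC12 was called at 0.49 (adjusted p = 0.0027) but not when its probe sets were averaged (0.14), and histone genes of a type are near-identical, so cross-hybridisation is possible and was not tested.

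The E2F family of factors drives replication genes through TTTGGCGC or TTTCCCGC, and promoters of the genes that fell were searched for these letters on both strands. They lay in 2.36% of 27305 promoters, in 38 of 516 called lower (7.36%), in 3.29% of those called higher, in 3.1% of those tested and not called, and in 11 of 34 DNA replication genes with a promoter (32.4%). The windows of CDC25A (chr3:48188418-48188667, minus strand) and GINS2, a subunit of the replicative helicase complex chosen after its values were seen (chr16:85688955-85689204, minus strand), are shown with the match in capitals, in GINS2 on the opposite strand.
CDC25A: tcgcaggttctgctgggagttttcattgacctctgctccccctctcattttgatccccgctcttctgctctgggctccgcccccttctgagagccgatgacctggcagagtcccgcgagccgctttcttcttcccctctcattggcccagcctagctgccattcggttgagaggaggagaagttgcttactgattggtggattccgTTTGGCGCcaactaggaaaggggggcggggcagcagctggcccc
GINS2: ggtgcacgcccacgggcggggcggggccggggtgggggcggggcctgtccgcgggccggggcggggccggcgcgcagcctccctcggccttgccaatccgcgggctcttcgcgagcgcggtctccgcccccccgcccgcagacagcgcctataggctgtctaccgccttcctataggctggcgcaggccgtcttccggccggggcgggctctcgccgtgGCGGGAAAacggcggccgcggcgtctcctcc
GINS2 averaged 8.17 ± 0.17 in treated and 8.84 ± 0.08 in untreated cells, a fall of -0.67 (adjusted p = 0.0017). A match describes the letters and does not show binding.

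**Figure D3:**
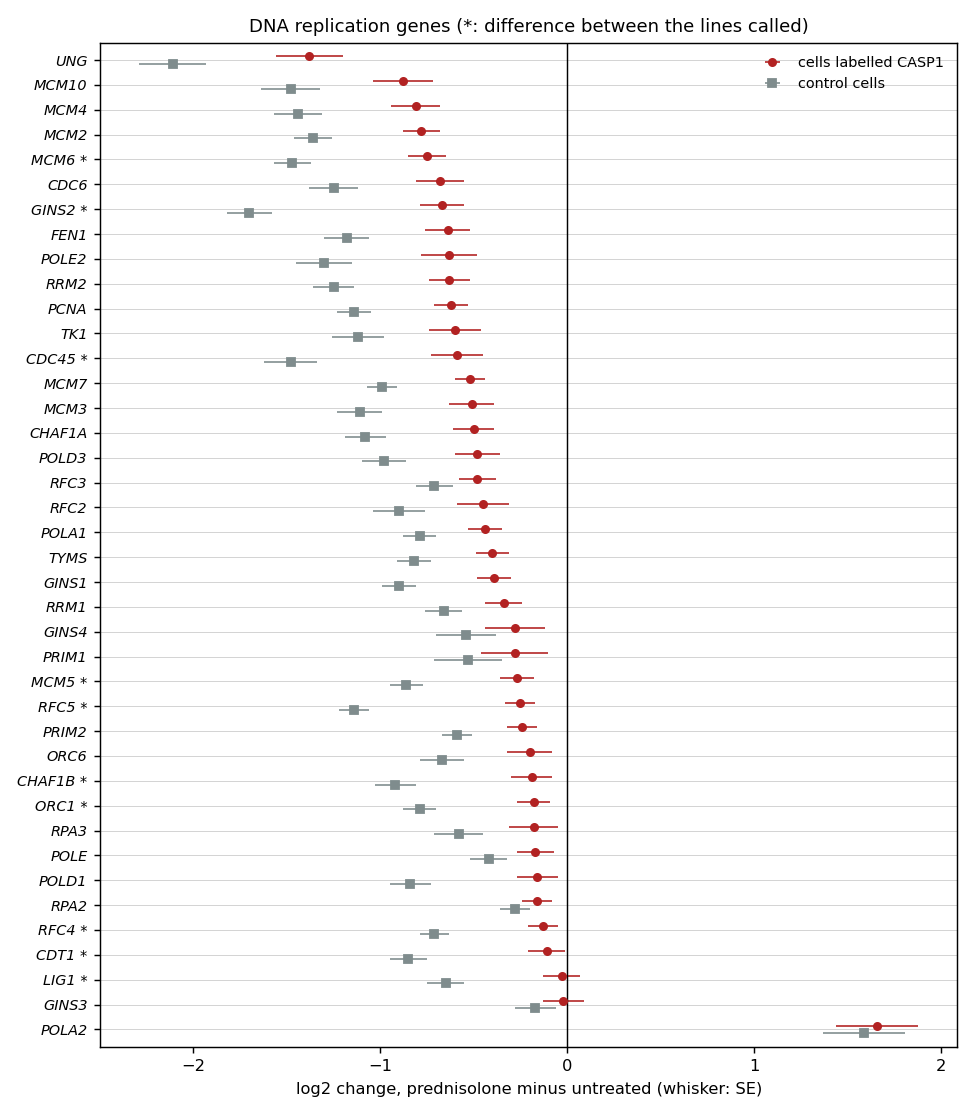
Change with prednisolone (horizontal axis, log2, whisker SE) of 40 DNA replication genes in cells labelled CASP1 (red circles) and in control cells (grey squares), from 16 arrays. All but POLA2 lie left of 0 in cells labelled CASP1, and stars mark the 10 genes whose change differed between the lines by the interaction test.

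MYC, the growth regulator whose loss is a known part of glucocorticoid action in lymphoid cells, had levels of 10.75, 10.84, 11.03 and 10.94 in treated cells, against 11.75, 11.92, 11.82 and 11.93 in untreated cells. All treated arrays were lower, by -0.96 (SE 0.09, 1.95-fold lower, adjusted p = 7e-07). In the MYC network of 13 genes 1 rose and 2 fell, with a median of -0.002. Of 31 nucleolar ribosome biogenesis genes 0 rose and 7 fell, and the median was -0.177. Without the 4 arrays numbered 1 it was 18 that fell, with a median of -0.287, beside 6.15% of all genes. BYSL, needed for the small ribosomal subunit, had levels of 7.27, 6.38, 6.49 and 6.62 with prednisolone and 7.78, 7.95, 7.78 and 7.93 without it (change -1.17, adjusted p = 5e-05), but 1 of 3 probe sets was called and their mean fell by 0.43. NOLC1, a nucleolar chaperone, fell by 0.52 (adjusted p = 0.0049) and LYAR, a nucleolar growth regulator, by 0.44 (adjusted p = 0.0025).

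Enzymes that supply nucleotides and methyl groups were called lower more often than higher. Among 21 purine and pyrimidine synthesis genes 0 rose and 3 fell, with a median of -0.234. PPAT, the committed enzyme of purine synthesis, averaged 8.17 ± 0.20 in treated and 8.85 ± 0.22 in untreated cells (change -0.69, adjusted p = 0.0012), and DUT, which breaks down dUTP, fell by 0.53 (adjusted p = 0.005). Of 15 serine and one-carbon enzymes 0 rose and 5 fell, with a median of -0.303. MTHFD1, a folate enzyme, had treated levels of 7.79 to 7.90 and untreated levels of 8.31 to 8.41 (change -0.52, SE 0.08, adjusted p = 0.0003), and PSAT1, of serine synthesis, fell by 0.50 (adjusted p = 0.01). GCSH, a subunit of the glycine cleavage system, fell by 0.72 (adjusted p = 0.0074).

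Counts for energy and lipid synthesis genes stand beside 2.99% of all genes called higher and 3.35% called lower. PFKP, the platelet type phosphofructokinase of glycolysis, had levels of 10.21, 10.12, 10.49 and 10.35 in treated cells, against 9.24, 9.49, 9.46 and 9.53 in untreated cells, and rose by 0.86 (SE 0.10, 1.82-fold, adjusted p = 1.5e-05). It was the only one of 26 glycolysis and hypoxia genes called, and the median of that list was -0.159. Without the 4 arrays numbered 1, 2 of the 26 were called higher and 6 lower. Of all genes 5.77% were called higher and 6.15% lower without those arrays, which also bears on the next lists. None of 24 respiratory chain genes was called by limma, and changes ran from -0.25 to 0.18. Of the 24, 2 had an unadjusted p under 0.05, beside 3211 of all 18132 genes. Without those arrays 1 of the 24 was called lower. In cholesterol and fatty acid synthesis 3 of 25 rose and 3 fell, or 4 and 7 without the 4 arrays numbered 1. LSS, lanosterol synthase, rose by 1.27 (adjusted p = 7.6e-05), whereas SQLE, squalene epoxidase, was called at -0.69 (adjusted p = 0.0086) and HMGCS1, the cytosolic HMG-CoA synthase, at -0.59 (adjusted p = 0.016). The calls of SQLE and HMGCS1 were lost with the 8 arrays of this line alone (adjusted p = 0.079 and 0.06), and that of HMGCS1 in 3 alternatives in all. Among 24 ATF4 targets and amino acid transporters 0 rose and 3 fell, or 14 without the 4 arrays numbered 1; SLC7A1, an arginine transporter, was called at -0.63, but not when its probe sets were averaged (-0.28, adjusted p = 0.094).

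Regulators of early B-cell identity fell in part. Of 18 ID and E proteins and recombination genes 1 rose and 5 fell, with a median of -0.233. ID3, which blocks E proteins, had levels of 8.48, 7.87, 8.0 and 7.89 in treated cells, against 9.83, 9.40, 9.36 and 9.37 in untreated cells (change -1.43, SE 0.17, adjusted p = 2.1e-05). LEF1, a Wnt pathway factor of early B cells, had levels of 10.39, 10.41, 10.68 and 10.69 with prednisolone and 12.05, 11.64, 11.59 and 11.63 without it (change -1.18, SE 0.10, adjusted p = 6e-07), and 7 of its 9 probe sets were called lower. Neither gene's groups overlapped. DNTT, the terminal transferase of V(D)J joining, was called at -0.53 (adjusted p = 0.021), with 11.36 on treated replicate 1 and 12.10 to 12.13 on the other treated arrays. Without that array the change was -0.34 (adjusted p = 0.011), and the call was lost in 4 alternatives.

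The pre-B receptor and its kinases had 1 of 17 genes higher and 2 lower. BLK, a SRC family kinase of B cells, averaged 7.89 ± 0.18 in treated and 6.65 ± 0.11 in untreated cells and rose by 1.24 (2.36-fold, adjusted p = 8.4e-08). Homing receptors and integrins had 1 of 23 higher and 3 lower; ITGA4, the alpha 4 integrin that binds VCAM1 in marrow, fell by 0.96 (adjusted p = 0.00063). In the selectin ligand and glycan list of 19, GCNT1 fell and FUT7, the fucosyltransferase that completes sialyl Lewis x, rose. FUT7 had levels of 6.30, 4.27, 4.94 and 4.26 in treated cells, against 2.89, 3.02, 2.90 and 2.83 in untreated cells, so the untreated values lay below the 25th percentile of genes and treated replicate 1 was highest (change 2.03, SE 0.30, adjusted p = 0.00021).

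Antigen presentation genes gave 5 calls in both classes together. Among 15 MHC class II genes 2 rose and 0 fell, with a median of 0.392, and 12 had a change above 0. CIITA, the master activator of class II genes, had levels of 5.49, 6.97, 7.25 and 7.43 in treated cells, against 4.66, 5.31, 5.51 and 5.78 in untreated cells, so treated replicate 1 overlapped the untreated arrays (change 1.47, SE 0.32, adjusted p = 0.008). HLA-DQA1, the alpha chain of HLA-DQ, had levels of 6.46, 7.90, 7.63 and 7.83 with prednisolone and 6.20, 6.50, 6.38 and 6.54 without it (change 1.05, adjusted p = 0.006). Both calls were lost with the 8 arrays of this line alone (adjusted p = 0.066 and 0.061), and that of CIITA also when its probe sets were averaged (0.53, adjusted p = 0.068). The averaged change of HLA-DQA1 was 0.33 (adjusted p = 0.0051), and 1 of its 4 probe sets was called. Without the 4 arrays numbered 1, 10 of the 15 were called higher, with a median of 0.566, beside 5.77% of all genes called higher. Class I and peptide loading genes had 1 of 17 higher and 2 lower, with TAP1, a peptide transporter, up by 0.64 (adjusted p = 0.0001) and PSMB10, an immunoproteasome subunit, down at -0.54 (adjusted p = 0.00062).

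Inflammatory and MAP kinase genes were split. Of 22 NF-kappaB genes 3 rose and 3 fell, with a median of -0.005: NFKBIA rose, as did NFKBIZ, a nuclear IkappaB protein, by 1.27 (2.41-fold, adjusted p = 6.5e-06), while TNFAIP3 and IL1B fell. Of 24 interferon-stimulated genes 2 rose and 3 fell, with a median of -0.059. ISG20, an exonuclease of antiviral defence, had levels of 7.94, 9.07, 9.02 and 9.14 in treated cells, against 5.32, 4.92, 5.19 and 5.48 in untreated cells (change 3.57, SE 0.21, 11.8-fold, adjusted p = 4.1e-09). MX1, an antiviral GTPase, rose by 1.78 (3.42-fold, adjusted p = 1.9e-06), whereas IFIT1, a sensor of viral RNA caps, fell by 0.57 (adjusted p = 0.0083). Of 18 MAP kinase phosphatases and feedback genes 1 rose and 2 fell, with DUSP6, which inactivates ERK, at 0.71 (adjusted p = 0.0084) and PHLDA1, a growth factor feedback gene, at -0.78 (adjusted p = 7.3e-05). None of 17 immediate early factors was called by limma. Of the 17, 6 had an unadjusted p under 0.05, beside 3211 of all 18132 genes. Without the 4 arrays numbered 1, 1 was called higher and 3 lower, where 5.77% of all genes were called higher and 6.15% lower.

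Chaperone lists were called in both directions, where 2.99% of all genes were called higher and 3.35% lower. Endoplasmic reticulum chaperones had 1 of 22 higher and 2 lower, and heat shock genes 1 of 16 higher and 1 lower. Without the 4 arrays numbered 1 the heat shock list had 4 higher and 5 lower, beside 5.77% and 6.15% of all genes. HSPA6, an inducible HSP70, had levels of 6.24, 6.40, 6.61 and 6.32 in treated cells, against 4.83, 5.45, 5.19 and 5.61 in untreated cells (change 1.12, adjusted p = 0.00039); a near-identical pseudogene copy may share its probe set. Of 22 p53 targets 3 rose and 0 fell, with a median of 0.144, and the largest rise was that of TP53INP1. TXNIP and its relatives, 6 alpha-arrestins, had 1 higher and 1 lower, and membrane complement inhibitors had 0 of 5 higher and 1 lower.

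A further 51 genes of the naming rule are given as a group. Of these 9 were called higher, with changes of 0.31 to 1.22, and 23 lower, with changes of -0.76 to -0.28, and each of these 32 lost its call in at least 1 alternative setting. NRIP1, a corepressor of nuclear receptors, was at -0.67 (adjusted p = 0.025) with its call lost in 7 alternatives, and TCF4, an E protein, at -0.76 (adjusted p = 0.0093) with its call lost in 1. P2RX1, an ATP-gated channel, was at 1.22 (adjusted p = 0.014) and ID4, an inhibitor of E proteins, at 0.85 (adjusted p = 0.04), with calls lost in 2 and 9. The remaining 19, named because their lists held few calls, were not called and had changes of -0.58 to 0.40; 7 of them were called in at least 1 alternative. Over all 161 genes of the rule, 142 were called, of which 89 kept their call in every alternative run and 53 lost it in at least 1.

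**Figure D4:**
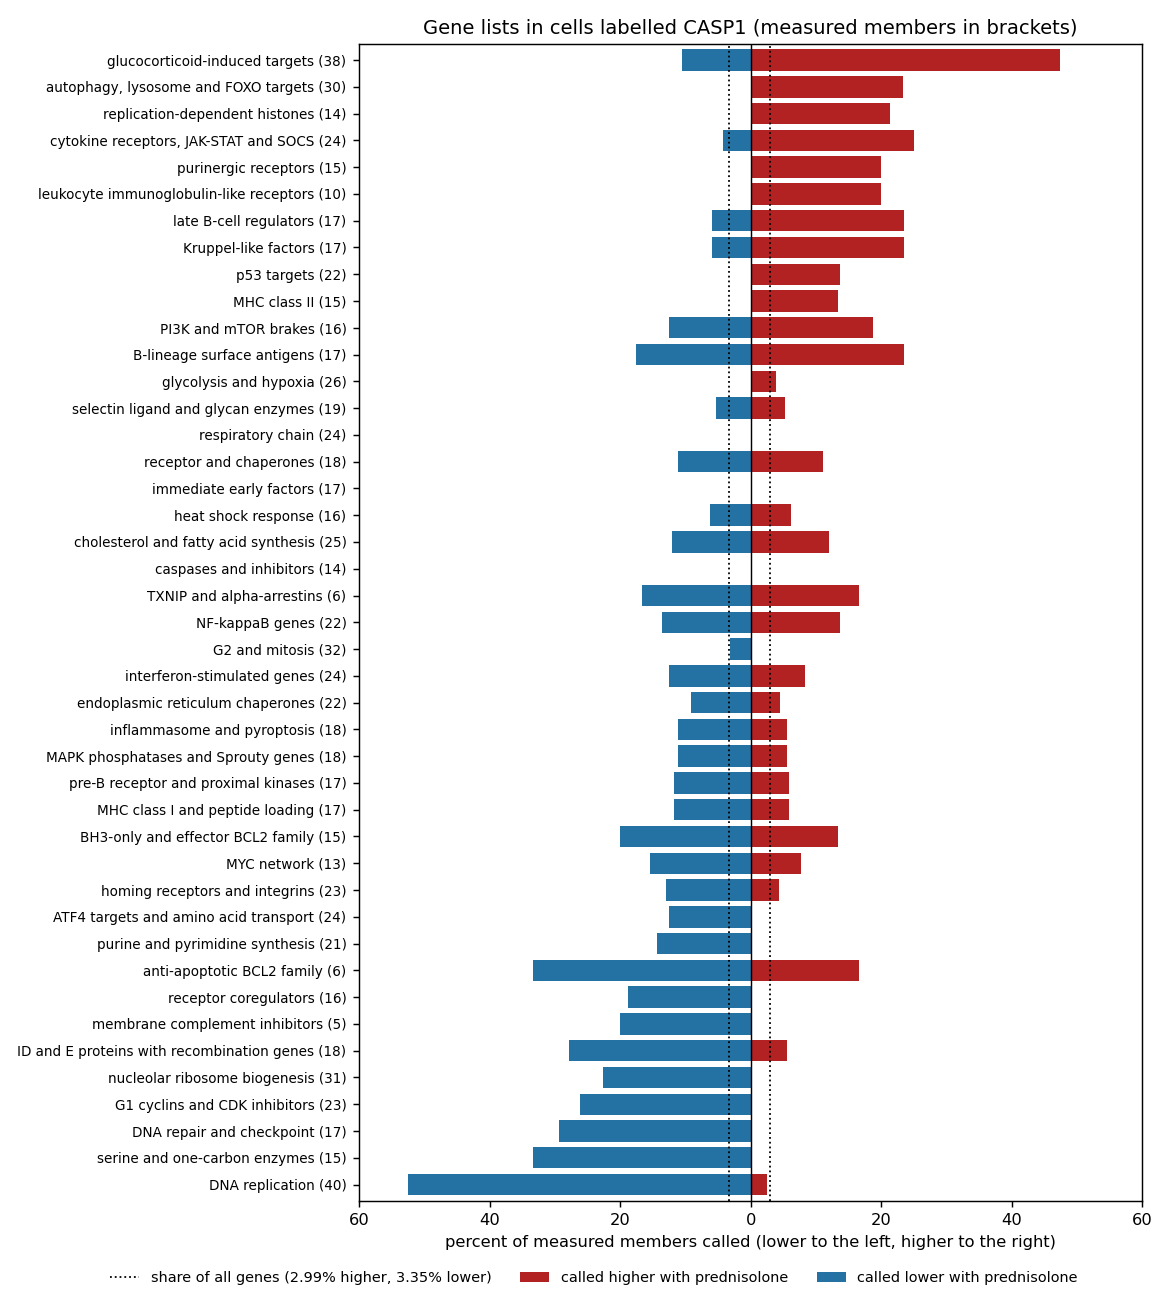
Percent of measured members of each of 43 gene lists called higher (red, to the right) or lower (blue, to the left) with prednisolone in cells labelled CASP1, with the number of measured members in brackets. Dotted lines mark the share of all genes called higher (2.99%) and lower (3.35%); the bars reach furthest for DNA replication (21 of 40 lower) and for glucocorticoid-induced targets (18 of 38 higher).

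Whether the response was particular to cells labelled CASP1 was tested by the interaction of line and drug, the change in these cells minus the change in control cells. It was called for 161 genes (0.888%), of which 95 lay above 0 (0.524%) and 66 below 0 (0.364%), and the median over all genes was 0.034. Of the 1150 responding genes, 70 had such a call. Of the same 1150 genes, 306 were called in cells labelled CASP1 and not in control cells. For only 11 of those 306, which are among the 70, was the difference itself called.

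IL7R was one of the genes with the larger rise in cells labelled CASP1, 1.56 against 0.41 in control cells (difference 1.15, SE 0.12, adjusted p = 8.3e-05). Its untreated level was 1.85 lower in the cells labelled CASP1, and its treated level averaged 9.68 there and 10.38 in control cells. TSC22D3 showed a like pattern, with a rise of 5.79 against 4.70 (difference 1.09, adjusted p = 0.0071), treated means of 12.67 and 12.50 and untreated means of 6.89 and 7.80. IRF8 rose by 1.88 against 0.74 (difference 1.14, adjusted p = 0.0071), or a difference of 0.69 averaged over its probe sets. RNF166, a ubiquitin ligase, had levels of 7.76, 7.60, 8.01 and 7.76 in treated and 5.82, 5.22, 5.51 and 5.89 in untreated cells labelled CASP1, and its rise was 2.17 against 0.58 in control cells (difference 1.59, SE 0.21, adjusted p = 0.0015).

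Other genes with a larger rise in cells labelled CASP1 were of varied functions. PIEZO1 rose by 2.60 in cells labelled CASP1 and by 1.19 in control cells (difference 1.41, adjusted p = 0.0091), with untreated means of 7.89 and 7.90. PFKP changed by 0.86 against -0.07 in control cells, where it was not called (difference 0.93, adjusted p = 0.0031), with untreated means of 9.43 and 9.60. P2RX5 rose by 3.40 against 1.91 (difference 1.48, adjusted p = 0.014). HSPA6 and FUT7, with changes of -0.07 and 0.21 in control cells, had differences of 1.20 and 1.82, but these calls were lost in 6 and 15 alternatives. The untreated mean of HSPA6 was 5.27 in cells labelled CASP1 and 4.29 in control cells (adjusted p = 0.0008).

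Smaller rises in cells labelled CASP1 were found for genes of metabolism, stress and the surface. TXNIP rose by 1.19 against 3.82 in control cells (difference -2.63, SE 0.17, adjusted p = 1e-07), and its untreated mean was 12.12 in cells labelled CASP1 and 8.91 in control cells. TP53INP1 rose by 2.28 against 5.10 (difference -2.81, adjusted p = 4.9e-05), with untreated means of 9.25 and 7.0, and the difference was -1.37 averaged over its probe sets. NFKBIZ rose by 1.27 against 2.55 (difference -1.28, adjusted p = 0.0031), again from a higher untreated mean, 6.42 against 4.85. In LILRB2 and P2RY14 the untreated means lay below the 25th percentile of genes in both lines, and the rises were 1.22 against 4.20 (difference -2.98, adjusted p = 8.6e-08) and 3.51 against 7.49 (difference -3.98, adjusted p = 0.0056).

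The rule for large differences also named TDRD9, a germline helicase, with a rise of 1.87 against 4.0 (difference -2.14, adjusted p = 0.0047), and SH3BP2, an adaptor of immune receptor signalling, with 1.54 against 3.34 (difference -1.80, adjusted p = 0.0012). The untreated means of TDRD9 were 2.64 in cells labelled CASP1 and 2.53 in control cells. Both lay below 3.55, the level under which no fold is given. For SH3BP2 the untreated mean was 3.48 in cells labelled CASP1, also below that level, and 5.12 in control cells. The rise of SH3BP2 in cells labelled CASP1 was 0.61 averaged over its probe sets. CSGALNACT1, which starts chondroitin sulfate chains, rose by 1.7 against 3.43 (difference -1.74, adjusted p = 0.013), and OGFRL1 by 1.01 against 2.39 (difference -1.38, adjusted p = 0.011). UTRN, the dystrophin relative utrophin, changed in opposite directions, at -0.42 in cells labelled CASP1 and 0.31 in control cells (difference -0.73, adjusted p = 0.012). HESX1, a homeobox repressor, did so at 0.45 and -0.44 (difference 0.89, adjusted p = 0.023), a difference whose call was lost in 7 alternatives. Its rise in cells labelled CASP1 was itself lost in 10 alternatives, with overlapping groups, and the fall of UTRN was lost in 2, among them the 8 arrays of this line alone (adjusted p = 0.055).

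In the DNA replication list 10 of 40 interactions were called above 0 and 0 below, beside 0.524% and 0.364% of all genes. The median interaction was 0.559. The median change was -0.419 against -0.901 in control cells. There 37 of the 40 were called lower, beside 8.43% of all genes in that line. Among cell-cycle genes SKP2 was at -0.50 against -1.73 (difference 1.23, adjusted p = 0.00048, or 0.79 with its probe sets averaged, adjusted p = 0.047), CDC25A at -0.76 against -1.55 (difference 0.78, adjusted p = 0.011) and GINS2 at -0.67 against -1.7 (difference 1.03, adjusted p = 0.0053). Of 17 repair and checkpoint genes 6 had an interaction called above 0 and 0 below, and the median change was -0.355 against -0.931. BCL2 was at -0.82 against -2.46 (difference 1.63, adjusted p = 0.012), with an untreated mean of 6.97 in cells labelled CASP1 and 8.84 in control cells, and the difference was 1.02 when its probe sets were averaged. For MHC class II genes the median change was 0.392 against 0.985, with 2 and 12 of 15 called higher, beside 2.99% and 5.73% of all genes. Of the 15 interactions limma called 0, beside 0.888% of all genes, while 8 had an unadjusted p under 0.05. The share of all genes under that unadjusted threshold was not counted for the interaction, so the 8 cannot be set against it. For NR3C1 the rise of 0.85 against 1.24 gave a difference of -0.39 (adjusted p = 0.27), and for FKBP5, PRDM1, MYC and CCND3 the differences were 0.38, -0.09, 0.16 and 0.33, with adjusted p of 0.39 to 0.97.

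**Figure D5:**
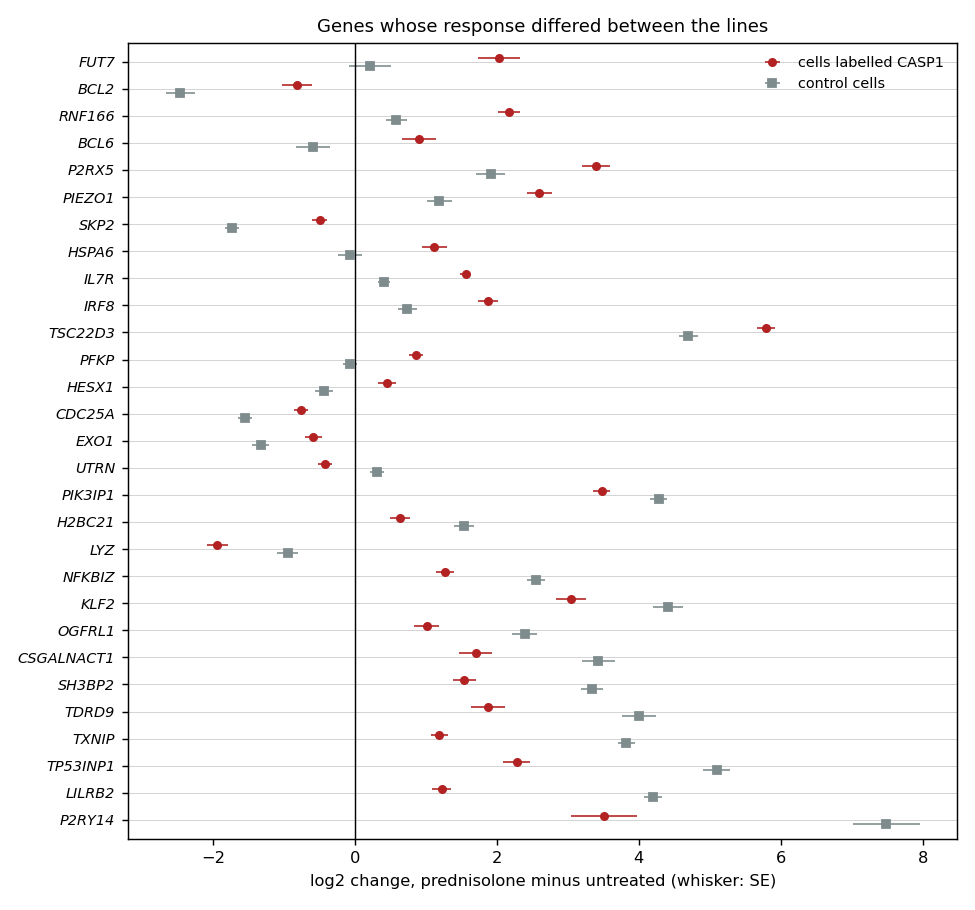
Change with prednisolone (horizontal axis, log2, whisker SE) in cells labelled CASP1 (red circles) and control cells (grey squares) for the 29 genes of the naming rule whose interaction was called, ordered from the most positive difference at the top (FUT7, 1.82) to the most negative at the bottom (P2RY14, -3.98). Each estimate rests on 4 treated and 4 untreated arrays.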

How the data were processed

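RNA from 16 Nalm6 samples was hybridised to PrimeView arrays. The deposited values are log2 signals, 1 per probe set. Per the submitters' processing notes they come from RMA, run by the authors before deposit, and no source names the program. RMA sets all arrays to 1 distribution, so RNA per cell was not measured. Of 49395 probe sets, 44988 had 1 gene in the platform annotation, 1832 several, 2473 none and 102 were controls; array medians were 4.85 to 4.93 and 99.88% of symbols matched RefSeq. Depth does not apply to arrays, and 4 arrays per group limit the precision.

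Per gene the probe set with the highest mean over all 16 arrays was kept. limma 3.58.1 in R 4.3.3 fitted 4 group means to all 16 arrays (12 residual degrees of freedom, prior 5.46, median residual SD 0.167), with Benjamini-Hochberg adjustment over 18132 genes. The script was tested on simulated data. Alternatives changed the normalization, centring, dim-gene filter, probe-set choice, variance model, arrays fitted, replicate block and each array in turn.

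The members, lists and naming rule were chosen with earlier results of these data known. The rule took CASP1, NR3C1 and TSC22D3, the 20 largest rises and 15 largest falls among called genes without overlap, up to 4 called members per list (the 2 largest changes where under 2 were called), the 8 largest interactions each way among called genes, and genes called in opposite directions. It named 161 genes: 110 are given with values of their own and 51 as a group. That choice, 15 genes outside the rule and the example genes of the figures were settled after values and alternatives had been seen. The share of described genes that held up is therefore not a rate, and the share over all 161 is given. PER2, BRCA1 and CDK1, named only to complete list counts, are also outside the rule. They are not among the 15, and no alternative is given for them.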

Additional observations from a re-analysis of the deposited data

Results flagged for a closer look

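In groups of 4 arrays, a value was set apart where its gap to the nearest other, as a share of the group's range, passed Dixon's critical value, which chance does in about 1 in 20 groups. Over the 161 genes of the naming rule this held for 48 of 322 groups, and for 45 of those 48 the array was replicate 1. With 15 genes outside the rule it was 52 of 352, 24 of them treated replicate 1 and 25 untreated replicate 1. Over all 18132 genes, treated replicate 1 was so set apart as highest in 451 and lowest in 701 genes, against at most 98 and 120 for any other treated array. Untreated replicate 1 was highest in 595 and lowest in 433, against at most 112 and 110. The cause was not tested.

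Treated replicate 1 was the lowest array for several genes. Among these were SOCS2 at 11.26 (others 12.15 to 12.32), ISG20 at 7.94 (others 9.02 to 9.14), TMEM100 at 6.83 (others 8.37 to 8.50) and STAG3 at 6.32 (others 7.79 to 8.02). Further values were ATP4B at 5.65 (others 7.43 to 7.56), LSS at 7.78 (others 8.57 to 8.66), GCNT1 at 6.41 (others 7.56 to 7.72) and MCM4 at 8.89 (others 9.42 to 9.51). Then came DUT at 10.17 (others 10.60 to 10.66), MME at 10.41 (others 11.63 to 11.69), DNTT at 11.36 (others 12.10 to 12.13) and SQLE at 6.99 (others 7.73 to 7.74). Also there were TDRD9 at 3.55 (others 4.81 to 4.87), CD69 at 7.37 (others 8.49 to 8.58), CA2 at 7.02 (others 8.06 to 8.18) and PGK1 at 10.46 (others 11.16 to 11.20). The list goes on with ID4 at 10.26 (others 11.34 to 11.46), ITGB1 at 8.89 (others 9.61 to 9.64), CD46 at 10.01 (others 10.75 to 10.87) and CD8A at 3.24 (others 3.78 to 3.89). It was the highest for GSDME at 6.70 (others 5.71 to 5.85), BCL2 at 6.99 (others 5.79 to 5.97), OGFRL1 at 7.25 (others 6.54 to 6.61) and NPY at 10.01 (others 9.14 to 9.21).

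Untreated replicate 1 was the highest array for other genes. Among these were CDKN1C at 9.36 (others 8.42 to 8.49), TP53INP1 at 9.83 (others 8.97 to 9.09), P2RY14 at 3.40 (others 2.70 to 2.71) and P2RX5 at 5.71 (others 4.57 to 4.73). Further values were PRDM1 at 4.93 (others 3.74 to 3.92), BCL2L1 at 7.77 (others 7.45 to 7.49), BIK at 8.23 (others 7.80 to 7.82) and ID3 at 9.83 (others 9.36 to 9.40). Then came LEF1 at 12.05 (others 11.59 to 11.64), DNTT at 12.52 (others 12.42 to 12.43), HERC5 at 10.79 (others 10.29 to 10.35) and BLNK at 9.99 (others 9.82 to 9.84). Also there was PDIA6 at 11.50 (others 11.23 to 11.27). It was the lowest for a further set. Within that set were CD9 at 12.72 (others 12.97 to 13.01), SOCS2 at 10.64 (others 10.96 to 11), KLF13 at 8.39 (others 8.79 to 8.87) and CDK4 at 9.40 (others 9.52 to 9.53). Further values were NOLC1 at 10.18 (others 10.49 to 10.55), SQLE at 7.85 (others 8.32 to 8.41), CD69 at 5.06 (others 6.13 to 6.34) and H2AC6 at 5.71 (others 6.26 to 6.33). Then came PGK1 at 10.90 (others 11.76 to 11.84), SCD at 10.03 (others 10.27 to 10.32), TCF4 at 11.43 (others 11.83 to 11.86) and P2RX1 at 5.11 (others 5.72 to 5.80). The other arrays set apart were untreated replicate 2 for NFKBIA at 9.64 (others 9.44 to 9.47), treated replicate 4 for LYZ at 3.83 (others 3.26 to 3.29) and untreated replicate 4 for GCSH at 5.04 (others 4.58 to 4.60).

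The response differed between cells labelled CASP1 and control cells, by the interaction test of limma at an adjusted p under 0.05, for these genes. Differences above 0 on the log2 scale were FUT7 1.82, BCL2 1.63, RNF166 1.59, BCL6 1.49, P2RX5 1.48, PIEZO1 1.41, SKP2 1.23 and HSPA6 1.20. The rest were CLIC3 1.20, IL7R 1.15, IRF8 1.14, TSC22D3 1.09, GINS2 1.03, CAMKK1 0.98, PFKP 0.93, HESX1 0.89, CDC25A 0.78 and EXO1 0.74. Differences below 0 were P2RY14 -3.98, LILRB2 -2.98, TP53INP1 -2.81, TXNIP -2.63, TDRD9 -2.14, SH3BP2 -1.80, CSGALNACT1 -1.74 and OGFRL1 -1.38. Also below 0 were KLF2 -1.36, NFKBIZ -1.28, LYZ -0.99, H2BC21 -0.91, PIK3IP1 -0.80 and UTRN -0.73. Some of these calls were lost in alternative settings: BCL6 in 19, FUT7 in 15, LYZ and EXO1 in 12 each, PIK3IP1 in 11, KLF2 in 10, CAMKK1 in 8, HESX1 in 7, and HSPA6 and H2BC21 in 6 each. Averaged over probe sets the differences were -0.19 for PIK3IP1 (adjusted p = 0.72), -0.39 for H2BC21 (adjusted p = 0.43), -0.62 for LYZ (adjusted p = 0.17) and 0.90 for BCL6 (adjusted p = 0.14).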

How the results depend on the processing

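The response count of 1150 genes was 1793 (980 lower) with a batch term for replicate 1, 2161 (1046 higher, 1115 lower) without the 4 arrays numbered 1, and 688 (324 lower) with the 8 arrays of this line only; the cause was not tested. Leaving out 1 array at a time gave 791 to 1292 genes (412 to 650 higher, 369 to 642 lower). The interaction count of 161 was 392 (240 above 0, 152 below 0) with the batch term, 727 (493 and 234) without the 4 arrays, and 96 to 268 without 1 array at a time (51 to 171 above 0, 43 to 97 below 0). No gene called in both settings changed sign in any of these alternatives. With the mean of probe sets 76.0% of the 1150 genes were called again, and with the 8 arrays only 57.1%.

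With the replicate block over 16 arrays 1559 genes were called in the response (715 higher, 844 lower) and 289 in the interaction (167 above 0, 122 below 0); with the block on 8 arrays 1002 were called. Deviations of treated and untreated arrays with the same number correlated at 0.436, 0.258, 0.096 and 0.26. In 3 of 4 cases an array correlated best with its own number, and replicate 1 did so between every pair of groups. The labels state no pairing, so the main fit took none into account. Whether the numbers mark shared cultures was not tested.

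Of 29 interactions called among the genes of the naming rule, 20 kept their call in every alternative and 9 lost it in at least 1. For 36 of the 142 called genes the mean of probe sets moved the change by over 1.5 times.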

Other observations

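Genes outside the lists, chosen after their values were seen, also changed. CD69, an early activation antigen that retains lymphocytes in tissue, had levels of 7.37, 8.58, 8.49 and 8.58 in treated cells, against 5.06, 6.13, 6.34 and 6.25 in untreated cells. Replicate 1 was the lowest array of both groups and the groups did not overlap (change 2.31, SE 0.50, adjusted p = 0.0079, or 1.30 averaged over its probe sets). RASD1, a RAS-like protein known as dexamethasone-induced, had levels of 10.59, 10.00, 10.34 and 10.18 with prednisolone and 8.80, 8.42, 8.36 and 8.47 without it, a rise of 1.76 (3.39-fold, adjusted p = 8.7e-08). CASTOR1, the arginine sensor upstream of mTOR complex 1, rose by 1.86 (3.62-fold, adjusted p = 3.3e-05), CA2, a carbonic anhydrase, by 1.81 (adjusted p = 1.3e-05) and NPY, a neuropeptide, by 1.80 (adjusted p = 0.00019). MERTK, a receptor tyrosine kinase that recognises dying cells, rose by 1.56 (adjusted p = 3.5e-05), as did DNMT3B, a DNA methyltransferase (adjusted p = 1e-05, 9 of 11 probe sets called higher). TLE1, a corepressor, rose by 1.44 (adjusted p = 2.5e-06).

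SLBP, which binds the stem-loop of histone mRNAs, had levels of 9.85, 10.14, 10.26 and 10.26 in treated and 10.92, 10.92, 10.88 and 10.94 in untreated cells, a fall of -0.79 (adjusted p = 3.8e-05). ESR1, the oestrogen receptor alpha gene, was called at -0.89 (adjusted p = 0.0002), but averaged over its 5 probe sets it was not (-0.18, adjusted p = 0.23). CLIC3, an intracellular chloride channel protein, averaged 5.34 ± 0.20 in treated and 3.54 ± 0.09 in untreated cells and rose by 1.80, against 0.60 in control cells (difference 1.20, adjusted p = 0.0033). CAMKK1, a calmodulin-dependent kinase kinase, rose by 1.46 against 0.48 (difference 0.98, adjusted p = 0.028), a difference whose call was lost in 8 alternatives; averaged over its probe sets the rise was 0.63 and the difference 0.35 (adjusted p = 0.57).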
